A study of Mus musculus with 3 samples.

Results

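A control transfection, with enhanced green fluorescent protein (EGFP), was set against no treatment, as 2 of the 3 samples of a series on the mouse myoblast line C2C12. Both were compared across every probe set of the array that has exactly 1 gene symbol, which is 20380 of 22690 probe sets and 12393 genes. Each group had 1 array, so no difference has a replicate check, no p-values are given and every ratio is a size alone. The untreated and the EGFP sample carry the time label 12 h. All cells were grown in D-MEM with 10% heat-inactivated fetal calf serum and plated in 6-well dishes for 18 h before transfection by the FuGene method. The remaining array came from cells transfected with DGKzeta, a kinase that phosphorylates diacylglycerol, at the same time. Its signals are set beside those of the pair without a ratio, since it would share the untreated array. The labels do not say whether the untreated cells received the reagent or a carrier, so the reagent, what was delivered and the protein made from it cannot be told apart here. The delivered EGFP sequence has no mouse gene symbol, so its own level was not analysed here.

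EGFP is an engineered form of a jellyfish protein that glows green, has no counterpart in mouse cells and serves as a control for the act of transfection. Mammalian cells sense foreign nucleic acid in the cytosol and in endosomes and answer through adaptors such as MAVS and kinases such as TBK1, which switch on interferon regulatory factors, type I interferons and chemokines. Interferon then binds its receptor and, through STAT proteins, raises interferon-stimulated genes, whose products bind viral RNA, block viral entry and load peptides onto MHC class I. A lipid reagent also enters cells through endosomes and lysosomes and adds membrane lipid.

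Signals are the brightness of a probe set in array units. Each gene was read by its brightest named probe set over the untreated and EGFP arrays, and it counted as measured on an array at a signal of 107 or more, the median of all values pooled. Lower signals were set to that floor before the log2 ratio of EGFP over untreated was taken. Where only 1 array reached the floor the ratio is a bound: it carries the words "at least" and is ranked with no measured ratio. Unlabelled signals given as 3 values are those of untreated, EGFP and DGK-zeta cells, in that order. By this floor the untreated array measured 6704 genes and the EGFP array 6845, with 6615 on both and 6934 on at least 1.

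The label of the line was checked against markers. Of 13 myoblast markers found on the array 8 were measured on both arrays, among them the muscle determination factor Myf5 (1058, 1227 and 2036), the intermediate filament gene Des (795, 932 and 479) and Vim (22739.5, 24189 and 20590.1). The determination factor Myod1 was under the floor at 35.1 and 26.5, as were Pax7, Cdon and Heyl. Of 15 myotube markers 1 was measured, Acta1, skeletal alpha-actin, at 146 in untreated and 144 in EGFP cells. Markers of other cells were mostly under the floor: 0 of 8 lymphocyte, 0 of 9 endothelial and 0 of 4 osteoblast markers were measured on either array, and 2 of 13 macrophage markers in untreated against 1 in EGFP cells. Neuron markers, 4 of 8, and adipocyte markers, 2 of 7, were measured on both. The neuron markers Stmn2 (4617 and 4357) and Nefl (2027 and 2451) were brighter than Myf5 and Des on both arrays. Of 9 epithelial markers 1 was measured in untreated and 2 in EGFP cells, with Krt14 at 589 and 687. Summed marker signals in untreated and EGFP cells were 847 and 782 for macrophage, 645 and 803 for adipocyte, 833 and 979 for epithelial and 7853 and 8160 for neuron markers. Their part in the differences between the arrays was not tested. In RNA of a whole culture, a large difference in few cells and a small one in all cells cannot be told apart, nor can fewer cells of a type and less RNA per cell.

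The arrays resembled each other closely. Over the 6615 genes measured on both, log2 signals had a Pearson correlation of 0.982 across genes, which are not independent replicates, and 94.7% of genes differed by less than 1.5-fold. The median log2 ratio was 0.02 over the 6934 genes, with an SD of 0.29 over those measured on both arrays. In EGFP cells 24 genes were at least 2-fold higher, 0.346% of genes, and 31 were at least 2-fold lower, 0.447%. At 1.5-fold the order turned, with 279 genes higher (4.02%) and 123 lower (1.77%). When all named probe sets were scaled to equal medians, which moved the median of all genes by -0.10, the 2-fold split was 10 higher and 44 lower. The ratio also followed brightness: over 5 bins of 1323 genes by signal, the median was 0.09 in the dimmest and -0.02 in the brightest, with SDs of 0.35 and 0.21.

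**Figure D1:**
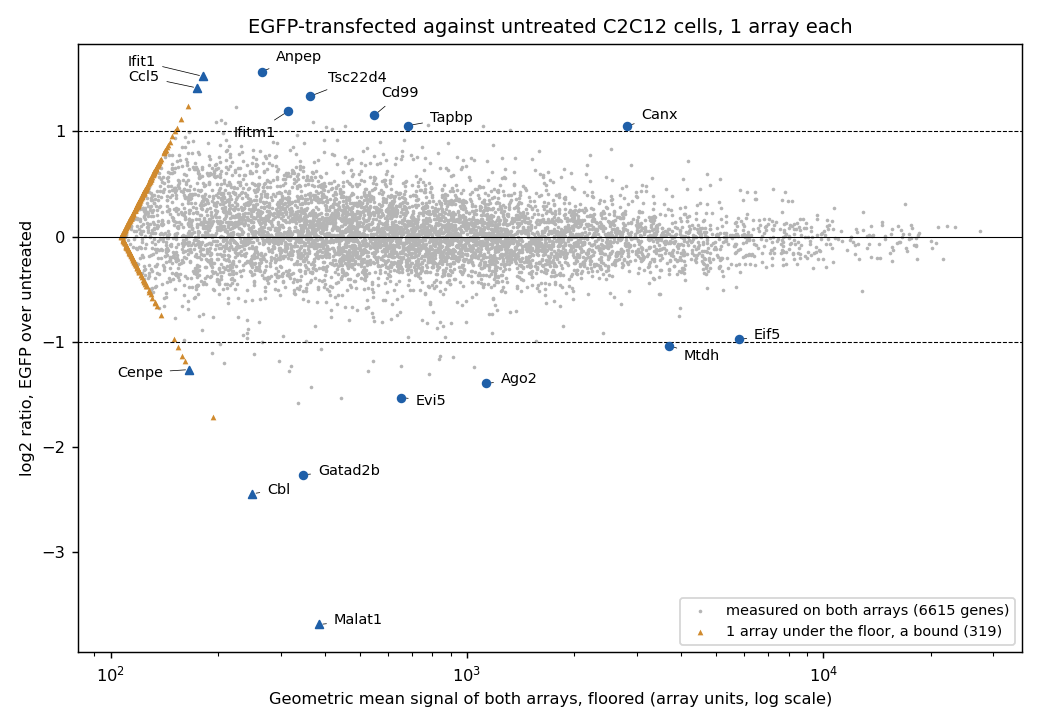
The log2 ratio of EGFP over untreated (y axis) is plotted against the geometric mean signal of both arrays (x axis, log scale), 1 point per gene, with named examples in blue and dashed lines at 2-fold. Grey points are the 6615 genes measured on both arrays, and triangles along the left edge are the 319 bounds; the spread narrows from an SD of 0.35 in the dimmest of 5 bins to 0.21 in the brightest.

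Interferon-stimulated effectors had the highest median of 32 gene lists. Ifit1 and Ifit3, proteins that bind foreign RNA and hold back its translation, went from signals far under the floor to measured ones. Ifit1 had signals of 19.7 (untreated), 308 (EGFP) and 314 (DGK-zeta), at least 2.88-fold higher with EGFP. Ifit3 had 15.3 (untreated), 149.9 (EGFP) and 123 (DGK-zeta), at least 1.40-fold higher. Their neighbour Ifit2, measured on both arrays at 202, 326 and 307, was 1.62-fold higher. In all 3 Ifit genes the signals of the transfected arrays lay near each other. The Ifitm genes encode membrane proteins that block the entry of viruses through endosomes. Ifitm1 had signals of 208 (untreated), 475 (EGFP) and 328 (DGK-zeta) and was 2.28-fold higher with EGFP. Ifitm3, at 3261, 5358 and 6104, was 1.64-fold higher, and Ifitm2, at 1545, 2035 and 1691, was 1.32-fold higher. Among effectors of other kinds, Isg20, an exonuclease of single-stranded RNA, was 1.88-fold higher at 125, 234 and 216. The immunity-related GTPase Irgm1 was 1.42-fold higher at 343, 489 and 622, and Ifi204, a DNA-binding protein of the nucleus, 1.43-fold at 130.1, 186 and 288. Tor3a, an ATPase of the endoplasmic reticulum, was 1.52-fold higher at 119, 181 and 227.

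Other effectors had ratios near 0. The kinase Eif2ak2 (PKR), which stops translation on double-stranded RNA, had a log2 ratio of 0.14, the ubiquitin ligase Trim25 0.10 and the nucleotide hydrolase Samhd1 -0.03, with 0.25 by another probe set. Of 45 effectors found on the array, 27 were under the floor on both arrays, among them Rsad2, which makes a nucleotide that stops viral polymerases, at 15.6, 21.3 and 10.5, Usp18, which removes ISG15, at 9.36, 26.5 and 28.7 and Oasl2, of the oligoadenylate synthetase family, at 15.9, 62.0 and 50.7. Signals under the floor have no order, so no ratio is given for them. Over the 13 effectors measured on both arrays 12 ratios were above 0, where 52.4% of all such genes were, 5 were at least 1.5-fold higher, where 3.6% were, and the median log2 ratio was 0.51, where that of all genes was 0.01. Another 5 effectors were bounds. Measured against genes of the same brightness bin, the median was 0.42. With the bounds included it was 0.47, and 0.40 to 0.61 under 10 other settings, the 3 other scalings included. Only 2 effectors had 2 or more measured probe sets, and in 1 of them all lay above 0, so most of these values rest on a single probe set.

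**Figure D2:**
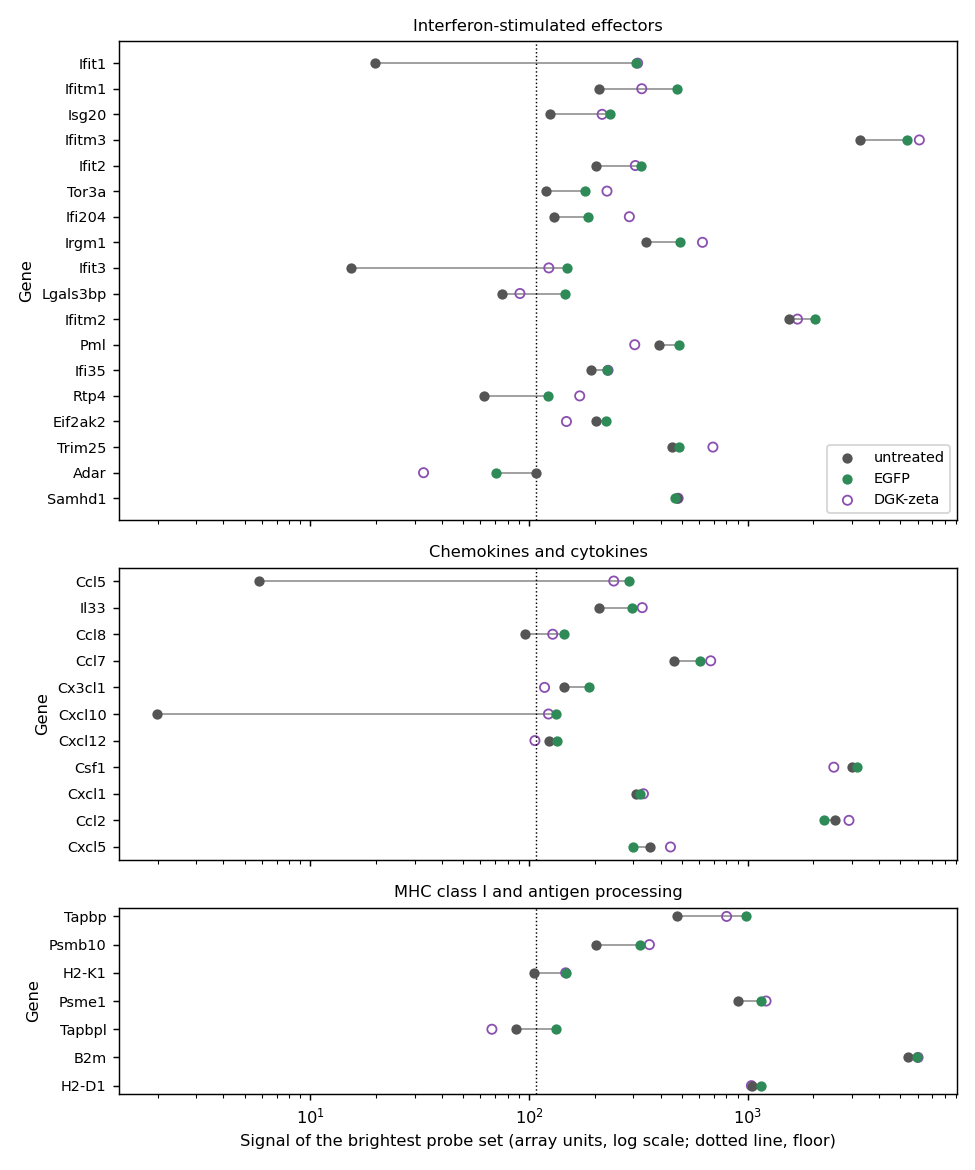
Signals of the brightest probe set (x axis, log scale) in untreated (grey), EGFP (green) and DGK-zeta cells (open purple) are shown for every measured member of 3 lists, with a dotted line at the floor of 107. Ifit1, Ifit3, Ccl5 and Cxcl10 lie left of the floor in untreated cells at 19.7, 15.3, 5.82 and 1.99, and right of it in EGFP cells.

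Promoters of some of these genes hold the core of the interferon-stimulated response element, the site where STAT and IRF proteins bind. The core was searched as GAAA, any 2 bases and GAAA again, or TTTC, any 2 bases and TTTC on the other strand, in the 250 bases before the start of each RefSeq promoter entry (GRCm38.p6). It was present in 978 of 32851 entries (2.98%) and in 171 of 5702 measured genes with an entry (3.00%). Of 15 measured effectors with an entry 4 held it, Ifit1, Ifit3, Irgm1 and Ifitm2, and so did 1 of 7 chemokine and cytokine genes, Cxcl10, and 1 of 6 MHC class I genes, B2m, the light chain. Of these, Ifit1, Ifit3 and Cxcl10 counted as measured through the EGFP array and were under the floor on the untreated one. The shares of effectors and chemokines thus depend on the difference itself and cannot be weighed against the 3.00%. Among 14 measured sensors and adaptors and 12 measured interferon receptor and transcription factor genes, only Myd88, the adaptor of Toll-like receptors, held it. Some of these genes had no entry. The windows of all 7 are printed to show where the core lies. Capitals mark the motif. Ifit1 lies at chr19:34640639-34640888 on the plus strand, with motifs that begin at -104 and -85 from the start, and Ifit3 at chr19:34583279-34583528 on the plus strand, with motifs at -156 and -122. Irgm1 lies at chr11:48871421-48871670 on the minus strand, with motifs at -30 and -24 that overlap. Cxcl10 lies at chr5:92348890-92349139 on the minus strand with its motif at -213, and Ifitm2 at chr7:140955962-140956211 on the minus strand with its motif at -46. B2m lies at chr2:122147437-122147686 on the plus strand with its motif at -139, and Myd88 at chr9:119340019-119340268 on the minus strand with its motif at -40.
Ifit1: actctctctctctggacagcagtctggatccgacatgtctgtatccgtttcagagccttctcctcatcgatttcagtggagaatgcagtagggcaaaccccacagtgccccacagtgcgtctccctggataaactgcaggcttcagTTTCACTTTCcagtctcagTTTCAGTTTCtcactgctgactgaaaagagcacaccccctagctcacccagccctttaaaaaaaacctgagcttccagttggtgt
Ifit3: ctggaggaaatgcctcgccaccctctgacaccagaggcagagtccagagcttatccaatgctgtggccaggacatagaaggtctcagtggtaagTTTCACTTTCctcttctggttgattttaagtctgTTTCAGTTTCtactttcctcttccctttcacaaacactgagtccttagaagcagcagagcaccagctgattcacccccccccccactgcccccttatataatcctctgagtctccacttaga
Irgm1: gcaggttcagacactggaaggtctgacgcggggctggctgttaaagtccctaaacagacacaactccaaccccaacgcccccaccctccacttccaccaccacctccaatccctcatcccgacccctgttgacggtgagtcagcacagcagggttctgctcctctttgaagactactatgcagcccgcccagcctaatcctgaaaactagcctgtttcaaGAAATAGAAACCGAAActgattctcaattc
Cxcl10: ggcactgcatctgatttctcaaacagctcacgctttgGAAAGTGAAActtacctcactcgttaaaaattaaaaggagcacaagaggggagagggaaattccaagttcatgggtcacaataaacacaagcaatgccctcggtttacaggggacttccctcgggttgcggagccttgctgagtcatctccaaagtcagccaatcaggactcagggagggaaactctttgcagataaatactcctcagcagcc
Ifitm2: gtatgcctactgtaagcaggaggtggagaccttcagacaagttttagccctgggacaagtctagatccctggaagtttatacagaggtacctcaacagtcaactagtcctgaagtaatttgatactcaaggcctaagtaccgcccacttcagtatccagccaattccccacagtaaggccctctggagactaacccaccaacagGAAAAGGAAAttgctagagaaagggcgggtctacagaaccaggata
B2m: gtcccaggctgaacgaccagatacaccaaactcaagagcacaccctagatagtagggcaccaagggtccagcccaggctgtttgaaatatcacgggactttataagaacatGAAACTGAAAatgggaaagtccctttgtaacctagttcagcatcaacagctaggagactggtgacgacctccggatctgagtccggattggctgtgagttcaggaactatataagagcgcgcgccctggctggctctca
Myd88: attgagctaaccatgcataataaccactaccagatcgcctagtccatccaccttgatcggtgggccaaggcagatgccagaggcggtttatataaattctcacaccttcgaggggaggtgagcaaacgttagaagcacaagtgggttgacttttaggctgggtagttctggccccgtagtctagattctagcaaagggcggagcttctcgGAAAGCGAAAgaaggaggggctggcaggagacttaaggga
In Ifit1 and in Ifit3 the first motif reads TTTCACTTTC and the next TTTCAGTTTC. The letters of the core were not found in the windows of Ifitm1, Ifitm3, Ifit2 or Isg20. A match is a description of these letters and not of binding. Of all 16 genes at least 2-fold higher with an entry 1 held the core (6.25%), and of 23 lower ones 1 (4.35%). The higher one is Ifit1, under the floor on the untreated array, so this share cannot be weighed against the 3.00% either. At 1.5-fold 4 of 227 higher genes held it (1.76%) and 4 of 96 lower ones (4.17%). Where all measured probe sets agreed in sign with a mean of at least 1.5-fold, 0 of 23 higher and 0 of 26 lower genes held it.

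Chemokine genes had 2 members that appeared from far under the floor. Ccl5, which draws T cells and monocytes, had signals of 5.82 (untreated), 286 (EGFP) and 244 (DGK-zeta), at least 2.66-fold higher with EGFP. Cxcl10, which draws activated T cells, had 1.99, 133 and 123, at least 1.24-fold higher. Ccl8, a ligand of chemokine receptors on monocytes, was at 96.1, 145 and 128, at least 1.36-fold higher. As with Ifit1, the signals of all 3 on the transfected arrays lay near each other. Ccl7, another monocyte chemokine, was 1.31-fold higher at 461, 606 and 678, and the nuclear cytokine Il33 1.43-fold higher at 208, 297 and 329.7. Ccl2, the chief monocyte chemokine and measured on all 3 arrays, was at 2499.5, 2246 and 2908, a log2 ratio of -0.15, and the neutrophil chemokine Cxcl5 at -0.26. The group was therefore uneven: of 29 genes found 18 were under the floor on both arrays and 3 were bounds. Over the 8 measured on both the median log2 ratio was 0.09, or 0.06 against genes of the same brightness, close to the 0.01 of all genes.

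Genes of MHC class I and antigen processing were higher as well, as far as they were measured. Tapbp encodes tapasin, which loads peptides onto MHC class I, and had signals of 474 (untreated), 986 (EGFP) and 802 (DGK-zeta), 2.08-fold higher with EGFP. Psmb10, a subunit of the immunoproteasome, was 1.60-fold higher at 203, 324 and 355. Psme1, a subunit of the proteasome activator PA28, was 1.28-fold higher at 903, 1156 and 1214. H2-K1, a heavy chain, was at 105, 148 and 147, at least 1.38-fold higher. The light chain B2m and the heavy chain H2-D1 had log2 ratios of 0.14 and 0.14. All 5 members measured on both arrays had ratios above 0, where 52.4% of all such genes did, with a median of 0.36, and 2 were bounds of the 14 found. Of 2 members with 2 or more measured probe sets 1 had all above 0, and the second probe set of B2m gave -0.03. In a separate list of proteasome subunits 27 of 37 were below 0, where 47.6% of all genes were, with a median of -0.07.

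The machinery upstream of these genes had medians near 0. Nucleic acid sensors and adaptors had a median of 0.01 over 14 measured members, with 8 above 0, and the sign of that median turned under each of 3 other scalings. Mavs, the mitochondrial adaptor of RNA sensors, was highest at 417 (untreated), 551 (EGFP) and 387 (DGK-zeta), a log2 ratio of 0.40, and its other probe set gave 0.99. Ifih1 (MDA5), a sensor of long double-stranded RNA, was under the floor on the untreated and EGFP arrays, at 28.2, 103 and 134. Myd88 was at 0.25. Interferon receptors and their transcription factors also had a median of 0.01, which turned below 0 under each of those scalings. Irf1, a transcription factor that interferon induces, was at 375, 537 and 355, a ratio of 0.52, with its highest signal in EGFP cells. Irf7, which amplifies the interferon response, was under the floor at 34.5, 60.9 and 47.9. Tyk2, a kinase of the interferon receptor, was at 0.47, while the receptor chain Ifnar1 was at -0.52. The probe sets of Stat3 disagreed, at -0.62 and 0.50. NF-kB subunits and targets had a median of 0.03, with Nfkb2 highest at 0.52.

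Many genes were read by several probe sets, which sets ratios from the same RNA beside each other. Of 2476 genes with 2 or more measured probe sets, 632 (25.5%) had all of them above 0 and 588 (23.7%) all below 0. In 10 genes every measured probe set was at least 1.5-fold higher (0.404%), in 6 every one was at least 1.5-fold lower (0.242%), and in 1, Malat1, every one was at least 2-fold lower (0.0404%). No gene had every measured probe set at least 2-fold higher. With the floor at the 25th percentile of all values these 2-fold counts were 2 higher and 0 lower.

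Among the genes whose probe sets agreed, Mvd had the highest mean ratio. It encodes the decarboxylase of mevalonate pyrophosphate in cholesterol synthesis and had signals of 159.6 (untreated), 283 (EGFP) and 191 (DGK-zeta) by one probe set, a log2 ratio of 0.83. The other gave 115, 257 and 202, a ratio of 1.16. Cd99, a cell surface protein of leukocyte passage through endothelium, had 3 measured probe sets, all highest in EGFP cells. They gave 369 (untreated), 820.0 (EGFP) and 285 (DGK-zeta), then 297, 479 and 195 and 163, 341 and 142, with ratios of 1.15, 0.69 and 1.07. Cpox, an enzyme of heme synthesis, was at 324, 554 and 488 and 135, 283 and 110.2, ratios of 0.77 and 1.08. Parp3, a poly(ADP-ribose) polymerase of DNA repair, was at 240.2, 425 and 569 and 160.4, 302 and 232, ratios of 0.82 and 0.91. For Cd99 the DGK-zeta signals lay under the untreated ones, while for Parp3 they lay above them. Polr2a, the large subunit of RNA polymerase II, was at 873, 1596 and 1076 and 113, 192 and 111, ratios of 0.87 and 0.76. The vesicle amine transport protein Vat1 was at 1178, 1966 and 1074 and 1059, 1830.1 and 1115, and its probe sets lay closest together, at 0.74 and 0.79. Polr2a and Vat1 had DGK-zeta signals nearer to the untreated than to the EGFP ones. Clstn1, a cargo adaptor of kinesin, gave 0.78 and 0.70, and Grina, a membrane protein of the Golgi and endoplasmic reticulum, 0.67 and 0.79. The uncharacterised gene 1700037H04Rik gave 0.73 and 1.05, and the splicing factor subunit Sf3a2 0.56 and 0.93. Lrig1, a membrane protein that restrains the EGF receptor, gave 0.49 and 1.01, and Commd1, which takes part in copper and NF-kB control, 0.55 and 0.91. In Parp3, Polr2a, Vat1, Clstn1 and Grina both ratios lay within 0.30 of each other, and in the others they lay further apart. This 0.30 is the spread, as an SD, estimated for 1 probe set across the 2476 genes. A difference between 2 probe sets spreads more widely than that, so the cut does not mark the other genes as less consistent.

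**Figure D3:**
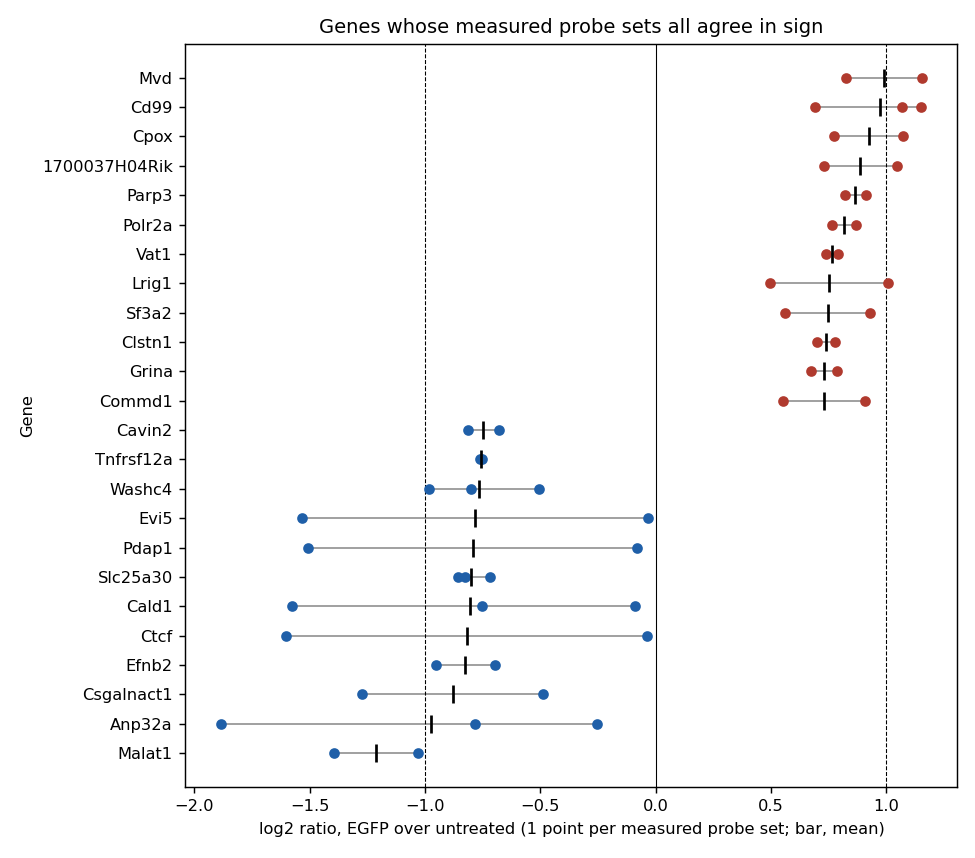
Each point is the log2 ratio of EGFP over untreated by 1 probe set measured on both arrays (x axis), for the 12 highest (red) and 12 lowest (blue) genes whose measured probe sets share a sign, with a bar at their mean and dashed lines at 2-fold. The red genes reach from 0.49 to 1.16, while several blue genes, such as Ctcf and Pdap1, join a ratio near 0 with one below -1.5.

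Malat1 stood lowest. It is a long nuclear RNA without a protein product, abundant in most cells and found at nuclear speckles. By its brightest probe set it had 1384 (untreated), 92.0 (EGFP) and 47.5 (DGK-zeta), at least 12.9-fold lower with EGFP. The others measured gave 431, 211 and 46.0 and 309, 117 and 30.6, log2 ratios of -1.03 and -1.40, and 2 were under the floor on both arrays. All 3 had their highest signal in untreated and their lowest in DGK-zeta cells. Tnfrsf12a, the receptor of the cytokine TWEAK, was at 5119.6, 3038 and 2353 and 4569.7, 2693 and 2156, with ratios of -0.75 and -0.76. It was lower by both probe sets to the same degree. The next genes were also lower by every measured one. Slc25a30, a mitochondrial carrier, was at 1154, 638 and 158 by its brightest probe set, and its 3 measured ones gave -0.85, -0.72 and -0.83. Efnb2, the membrane-bound ligand of Eph receptors, was at 625, 385 and 433 and 393, 203 and 262, ratios of -0.70 and -0.95. Cavin2, a coat protein of caveolae, was at 661, 413 and 506 and 399.8, 228 and 209.6, ratios of -0.68 and -0.81. Washc4, a subunit of the WASH complex on endosomes, gave -0.51, -0.80 and -0.98, and Csgalnact1, an enzyme of chondroitin sulfate synthesis, -0.49 and -1.27.

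Other low genes shared a sign but not a size. Ctcf, the insulator protein that anchors chromatin loops, had a ratio of -0.04 by its brightest probe set (1071, 1044 and 1374) and -1.60 by the other (331, 109 and 37.1). Cald1, the actin-binding protein caldesmon, gave -0.09, -1.58 and -0.75. Anp32a, an acidic nuclear phosphoprotein, gave -0.25, -1.89 and -0.78. Pdap1, a phosphoprotein that binds PDGF, gave -0.08 and -1.51, and Evi5, a cell cycle protein, -1.53 and -0.03. In these genes the probe set with the largest ratio in size had its lowest signal in DGK-zeta cells. The one nearest 0 was brightest there in Ctcf, Cald1 and Evi5. In Anp32a (457, 383 and 382) and Pdap1 (1880, 1779 and 872) it was brightest in untreated cells.

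Anpep, read by a single measured probe set, had the highest ratio of all genes measured on both arrays. It encodes aminopeptidase N, a peptidase of the cell surface, and had signals of 154 (untreated), 457 (EGFP) and 119 (DGK-zeta), 2.97-fold higher with EGFP. Tsc22d4, a leucine zipper protein, was 2.52-fold higher at 229, 577 and 204, and Nenf, the secreted neudesin, 2.35-fold higher at 147, 345 and 442. Anpep and Tsc22d4 were near their untreated signals in DGK-zeta cells, and Nenf was higher still. Among genes with 1 measured probe set Ifitm1 came next, followed by Cdk5r1, the activator of the kinase CDK5, at 2.15-fold, and Dnm1, a dynamin that cuts endocytic vesicles from the membrane, at 2.14-fold (254, 542 and 482). Dtx3, a ubiquitin ligase, was 2.13-fold higher, and Strada, a partner of the kinase LKB1, 2.12-fold. Among bounds, Tbc1d24 was at least 2.37-fold, the spindle checkpoint protein Mad1l1 at least 2.17-fold and the zinc finger gene Zfp777 at least 2.05-fold higher.

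The lowest single-probe genes lay further from 0. Gatad2b, a subunit of the NuRD chromatin complex, had signals of 762 (untreated), 158 (EGFP) and 67.9 (DGK-zeta), 4.81-fold lower with EGFP. Ankhd1, an ankyrin repeat protein, was 2.99-fold lower at 579.9, 194 and 57.1. Ago2, the Argonaute protein that cuts targets of small RNAs, was 2.63-fold lower at 1839, 698 and 309. In each of these genes the order of signals from high to low was untreated, EGFP, DGK-zeta, and the cause of this order was not tested. Bbx was 2.43-fold, the GTPase Rhoj 2.35-fold and the syntrophin Sntb2 2.31-fold lower, 1810058I24Rik 2.22-fold and the kinase anchoring protein Akap2 2.19-fold. Cbl, a ubiquitin ligase of receptor tyrosine kinases, was under the floor in EGFP cells (584, 83.4 and 13.1), at least 5.45-fold lower. Resf1, a factor of retroelement silencing, was at least 3.28-fold lower at 351, 101 and 15.4, and its other probe set gave a bound of -1.75 on the log2 scale. Usp49, a deubiquitinase, was at least 2.27-fold lower at 243, 77.1 and 136.

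A second probe set of the same gene often gave another ratio. Of 2476 pairs 1424 (57.5%) shared a sign, with a correlation across genes of 0.15. The share was 65.6% where the brightest probe set had a ratio between 0.5 and 1 in size, and 56.2% (9 of 16) where it had 1 or more. It was 3 of 4 for genes higher with EGFP and 6 of 12 for lower ones. Senp1, a protease of SUMO, had signals of 599.9 (untreated), 223 (EGFP) and 75.2 (DGK-zeta) by its brightest probe set and 192, 336 and 172 by the other, ratios of -1.43 and 0.81. Rspry1 gave -1.53 and 0.48, and the unconventional myosin Myo10 -1.28 and 0.18. Sbno1 gave -1.18, 0.24 and -0.38. In Senp1, Rspry1, Myo10 and Sbno1 the brightest probe set was lowest in DGK-zeta cells. The other measured probe sets of Senp1, Myo10 and Sbno1 were lowest there as well. That of Rspry1 was lowest in untreated cells, at 277, 387 and 339. Eif5, which triggers hydrolysis of GTP at the start codon, had 8167 (untreated), 4144 (EGFP) and 2486 (DGK-zeta) by its brightest probe set, a ratio of -0.98, and ratios of 0.05, -0.17 and 0.47 by the others. Canx, the chaperone calnexin of the endoplasmic reticulum, was 2.07-fold higher at 1953, 4042 and 4665, with 0.43 and 0.19 by its other probe sets.

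**Figure D4:**
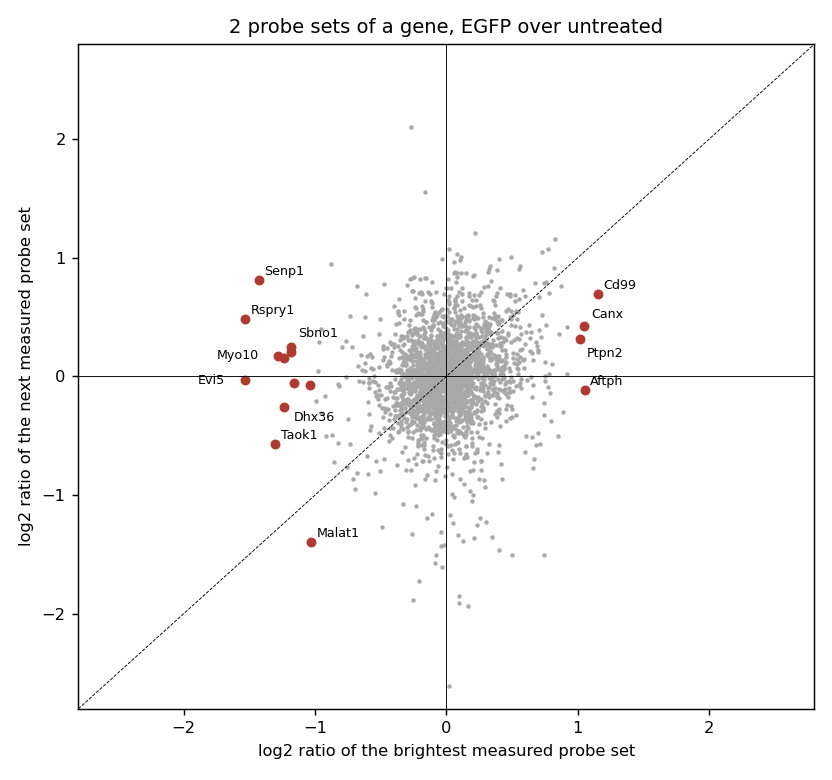
The log2 ratio of the brightest measured probe set of a gene (x axis) is plotted against that of the next (y axis) for 2476 genes, with the 16 genes at 1 or more in size by the former in red. The correlation is 0.15, and 6 of the 12 red points on the left lie above 0 on the y axis, away from the dashed line of equality.

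The 3' and 5' control probe sets of the array read how complete the labelled RNA was. The ratio of the 3' to the 5' set for Actb was 1.27 in untreated and 1.43 in EGFP cells, beside 2.55 in DGK-zeta cells. For Gapdh it was 0.841 and 0.902, beside 0.931. For the transferrin receptor it was 3.92 and 4.80, beside 5.66, with 5' signals of 106 and 53.1, under the floor. All 3 controls thus had a higher 3' to 5' ratio in EGFP than in untreated cells, and the highest in DGK-zeta cells. The 5' and middle signals of the transferrin receptor were under the floor on all 3 arrays, so its order cannot be read. By the ratio of the 3' to the middle set, Actb was highest in DGK-zeta cells (1.32, 1.38 and 2.85). Gapdh (0.931, 1.03 and 0.942) and the transferrin receptor (4.45, 5.40 and 5.33) were highest in EGFP cells. Signals of Malat1, Gatad2b, Ankhd1 and Ago2 fell from untreated over EGFP to DGK-zeta cells. Those of Efnb2, Usp49 and Rps27, also lower with EGFP, were lowest in EGFP cells. The share of all genes in either order was not counted. The part of the control ratios in differences between arrays or between probe sets was not tested. The positions of probes along transcripts were not used.

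Most genes of sterol synthesis had ratios above 0. Of 20 cholesterol synthesis and uptake genes measured on both arrays 15 were above 0, where 52.4% of all such genes were, with a median log2 ratio of 0.22, or 0.23 against genes of the same brightness. The median lay between 0.10 and 0.31 under 12 other settings. Besides Mvd, Dhcr7, which reduces the last intermediate to cholesterol, was 1.67-fold higher at 548, 914 and 527. Cyp51, the lanosterol demethylase, had a log2 ratio of 0.59 at 745, 1121 and 1323, and 0.07 by its other measured probe set. Msmo1, a sterol oxidase, was 1.40-fold higher at 2367, 3312 and 3310.4, and Lss, lanosterol synthase, 1.30-fold at 409, 531 and 438. Of the 9 genes with 2 or more measured probe sets 6 had all above 0 and 0 all below, where 25.5% and 23.7% of all such genes did. DGK-zeta signals of Dhcr7 and Lss lay near the untreated ones, and those of Cyp51 and Msmo1 at or above the EGFP ones. Fatty acid and phospholipid synthesis had a median of 0.11 over 23 members, or 0.0078 once all named probe sets were scaled to equal medians, with the desaturases Fads1 at 0.44 and Scd1 at 0.42.

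Lysosome and autophagy genes had mostly small ratios above 0. Of 37 measured members 30 were above 0 (81.1%, beside 53.3% of all genes), the median was 0.14, and none reached 1.5-fold. The cathepsin Ctsz was at 0.56, -0.05 and 0.49 by its 3 probe sets and the proton pump subunit Atp6v0d1 at 0.38, while Gabarapl2, which binds to autophagosome membranes, was at -0.38. Equal medians over all named probe sets brought the median to 0.03. Endocytosis and membrane traffic genes had a median of 0.11 over 34 members, or 0.01 with that scaling. The members past 1.5-fold were Dnm1 and Ap2a1, a subunit of the clathrin adaptor AP-2 that was 1.93-fold higher at 117, 225 and 82.9.

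Stress pathways showed single high genes over small medians. The unfolded protein and integrated stress response list had a median of 0.03 over the 29 members measured on both arrays. Trib3, a pseudokinase that the factor ATF4 induces, was at 91.0 (untreated), 196 (EGFP) and 201 (DGK-zeta), at least 1.83-fold higher with EGFP by its brightest probe set. The other, at 122, 107 and 305, was a bound in the opposite direction, of -0.18 on the log2 scale. Sesn2, which ATF4 and p53 both induce, was at 102, 187 and 76.5, at least 1.74-fold higher, and the ubiquitin ligase Syvn1 1.56-fold higher at 236, 368 and 182. The brightest probe set of Trib3 had a similar signal with DGK-zeta, while Sesn2 and Syvn1 lay under their untreated signals there. Genes of p53 and growth arrest had a median of 0.16 over 22 members measured on both, 14 of them above 0, beside 52.4% of all such genes. Gadd45a, a growth arrest gene of DNA damage, was 1.52-fold higher at 158, 240.5 and 355, and Tob1, an antiproliferative protein of the BTG/TOB family, 1.49-fold at 505, 749.9 and 1145. Trp53inp1, a p53 target, was at 63.5, 177 and 364, at least 1.66-fold higher. These 3 genes were higher again in DGK-zeta cells. Plk3, at 84.1, 162 and 112 and at least 1.51-fold higher with EGFP, was not, nor was Sesn2, which is also in this list.

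Targets of NRF2, which guards against oxidants, had a median of 0.11 over 30 members. Scaling to equal medians of all named probe sets brought it to 0.0087, and the median of the p53 list to 0.06. Hmox1, heme oxygenase, was at 0.51 and catalase, Cat, at 1143 (untreated), 1605 (EGFP) and 2836 (DGK-zeta), a ratio of 0.49, while Gclc, the catalytic subunit of glutathione synthesis, had probe sets at -0.65 and 0.18. Heat shock genes had a median of 0.07, which turned below 0 under 1 of 3 other scalings, with the co-chaperone Bag3 highest at 0.38. Metal response genes had a median of 0.19 over 11 members, or 0.09 over the 10 measured on both arrays. There the zinc transporter Slc39a1 was 1.96-fold higher at 238, 467 and 581, and the metallothionein Mt1 1.36-fold at 4992, 6796 and 5407. Apoptosis regulators had a median of -0.03 over 22 members. Bak1, which permeabilises mitochondria, was the highest member at 418, 779 and 259, 1.86-fold above untreated.

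Genes of hypoxia and glycolysis were above 0 in 21 of 27 members (77.8%, beside 53.3% of all genes), with a median of 0.17, and 0.09 to 0.21 under 12 other settings. Of the 14 with 2 or more measured probe sets 7 had all above 0 and 0 all below, beside 25.5% and 23.7% of all such genes. Aldoa, aldolase, had 4 measured probe sets, the brightest at 4062 (untreated), 5694 (EGFP) and 6409.5 (DGK-zeta), with ratios of 0.49, 0.69, 0.62 and 0.54. All 4 carry the suffix _x_at, and whether they are separate readings was not tested. The neuron-type enolase Eno2 was 1.86-fold higher at 138, 256 and 212, and Tpi1, triosephosphate isomerase, 1.34-fold at 5275, 7064 and 6667. The histone demethylase Kdm3a was lower, at a ratio of -0.56.

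Most genes of DNA replication and mitosis had ratios slightly below 0. Of 45 replication genes, all measured on both arrays, 32 were below 0, where 47.6% of all such genes were, with a median of -0.10. Of 21 with 2 or more measured probe sets 11 had all below 0 and 1 all above, beside 23.7% and 25.5% of all such genes. Rfc3, a subunit of the clamp loader, was at 1116 (untreated), 635 (EGFP) and 733 (DGK-zeta), a ratio of -0.81, with -0.08 by its other probe set. Fen1, the flap endonuclease, was at -0.55, with 0.00 by its other probe set, the initiation factor Cdc45 at -0.42 and the origin subunit Orc6 at -0.45. Lig1, the ligase of Okazaki fragments, was the highest member at 886, 1461 and 1037, 1.65-fold above untreated. Of 51 mitosis genes measured on both arrays 35 were below 0, beside the same 47.6%, with a median of -0.10. Kif11, the motor that separates spindle poles, had 3 probe sets, the brightest at 727, 477 and 434, with ratios of -0.61, -0.67 and -0.35. Prc1, which bundles the central spindle, gave -0.40 and -0.36. Cenpe, a kinetochore motor, was at 258, 59.7 and 5.84, at least 2.40-fold lower. Both medians kept their sign under 12 other settings, at -0.20 to -0.08 for replication and -0.20 to -0.10 for mitosis. Bright genes as a whole had a median of -0.02, and against genes of the same brightness the medians were -0.09 and -0.08.

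Regulators of the G1 phase had a median of -0.02 over 22 members, with 9 above 0 and 13 below. Ccnd1, which encodes cyclin D1 and is named in the title of the series, had signals of 3889 (untreated), 3735 (EGFP) and 4758 (DGK-zeta) by its brightest probe set and ratios of -0.06, -0.25 and -0.14. The kinase inhibitors Cdkn1a and Cdkn1b, p21 and p27, were at 0.29 and 0.33 by their brightest probe sets, and the phosphatase Cdc25a at -0.77. The other measured probe sets of Cdkn1a and Cdc25a had the opposite sign, at -0.40 and 0.29. Btg2, also in the title, was at 94.7, 116 and 117 and hence at the floor. Dgkz, the gene transfected in the remaining sample, was at 1500.1 and 1053 by its brightest probe set, a ratio of -0.51, and at 0.36 by the other. The median of immediate early genes was 0.0013, with Jund at 1896, 3381 and 2277 (0.83) and Junb, its relative, at 326, 171 and 83.1 (-0.93).

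Muscle, matrix and cytoskeleton lists were centred near 0. Myogenic regulators had a median of -0.02 over 19 members, or 0.03 over the 17 measured on both arrays. Snai2 and Snai1, repressors that bind E-boxes, were at 265, 436 and 509 and 171, 261 and 120.4, ratios of 0.72 and 0.61, while Six4, a homeobox factor of muscle precursors, was at 600.3, 377 and 229, a ratio of -0.67. Of 49 sarcomere genes found 40 were under the floor on both arrays, and the 9 measured had a median of -0.02. The extracellular matrix had a median of 0.04, which turned below 0 under 1 of 3 other scalings. Mmp14, a membrane-bound collagenase, was at 1484 (untreated), 891 (EGFP) and 262 (DGK-zeta), with -0.74 and -0.57 by its 2 probe sets, and the basement membrane protein Nid2 at -0.61. Lama5, a laminin chain, was at 0.70 by its brightest probe set. The actin list had a median of -0.01, with the fibronectin receptor subunit Itga5 at 390.2, 701 and 169 (0.85) and the filamin Flnc at 1031, 626 and 226 (-0.72). Within TGF-beta signalling, of median 0.07, Tgfb1 was at 385, 675 and 273 (0.81) and Grem1, a secreted inhibitor of BMPs, at 2502, 1386 and 1562 (-0.85). Medians near 0 here joined single genes of either sign.

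Bright housekeeping lists had medians slightly below 0. Cytosolic ribosomal proteins had a median of -0.07, with 31 of 43 below 0, the mitochondrial respiratory chain -0.07, with 42 of 68, and translation factors -0.08, with 26 of 33, where 47.6% of all genes measured on both arrays were below 0. Spliceosome genes had a median of -0.02. Against genes of the same brightness these medians were -0.05, -0.05, -0.06 and 0.0013. Rps27, a ribosomal protein, was the member past 2-fold at 373 (untreated), 171 (EGFP) and 380.5 (DGK-zeta), 2.18-fold lower with EGFP. The Sm core protein Snrpd3 was 1.68-fold higher at 1050.4, 1769 and 3561. Over all 32 lists, bounds included, 20 medians were above 0 and 12 below, where the median of all genes was itself 0.02. Those of immediate early genes, sensors, interferon receptors and histones were above 0 but under that value, at 0.0013, 0.0050, 0.0063 and 0.0084.

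**Figure D5:**
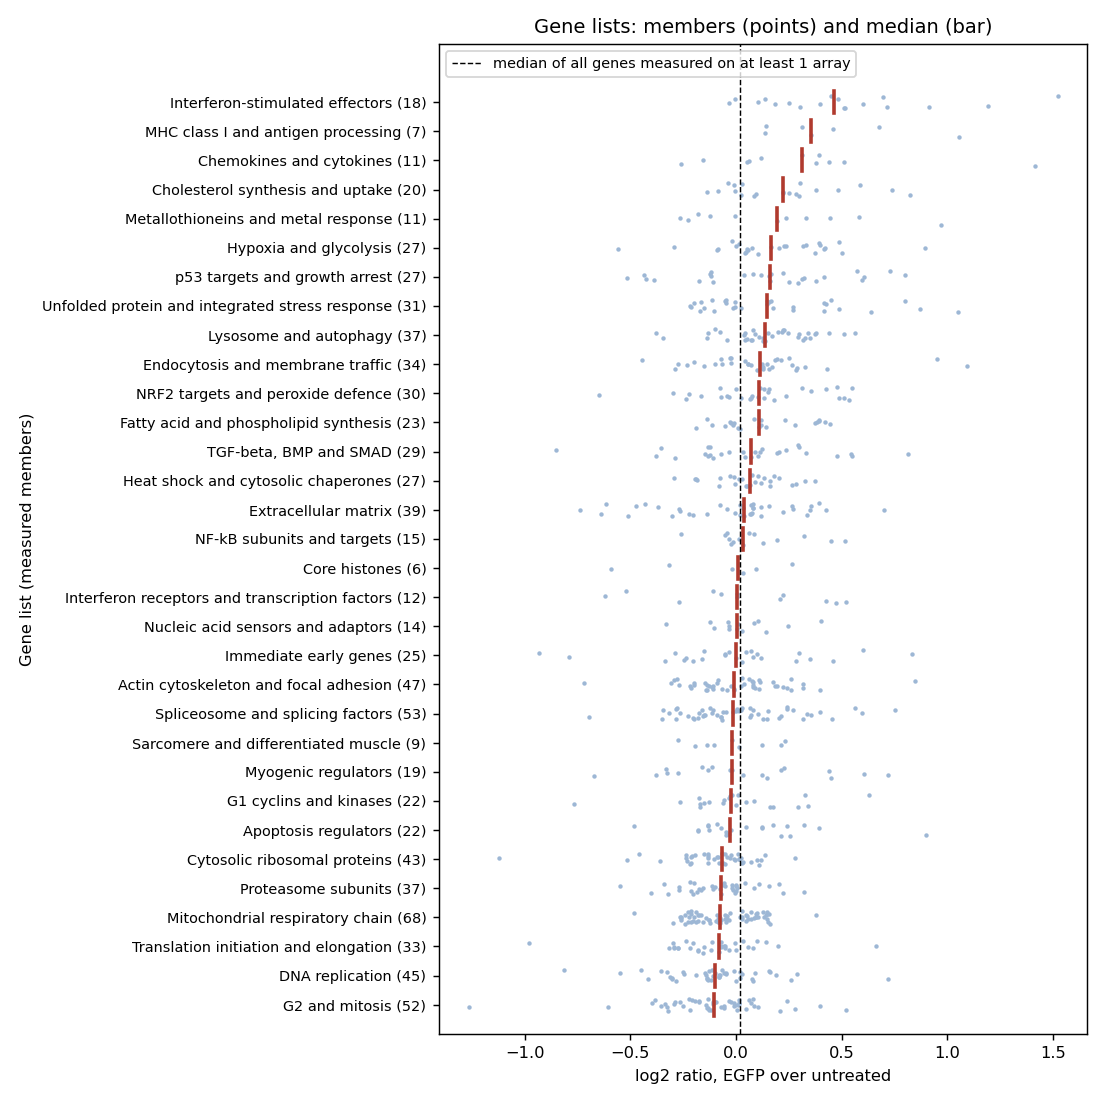
Points are the log2 ratios of EGFP over untreated (x axis) of the measured members of 32 gene lists, bounds included. Lists are ordered by the median of these members (red bar), with their number in brackets and a dashed line at the median of all genes, 0.02. Chemokines, metal response and unfolded protein response stand at 0.31, 0.19 and 0.14, and at 0.09, 0.09 and 0.03 without bounds. Interferon-stimulated effectors lie at the top with 0.47 over 18 members, bounds included, and DNA replication and mitosis at the bottom with -0.10 each.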

How the data were processed

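RNA of untreated and EGFP-transfected C2C12 cells was hybridised to 1 Affymetrix array each, after one-cycle biotin labelling per the labels' protocols. The authors deposited linear intensities, 1 per probe set, from MAS5 according to the submitters' processing notes. The version, the target of scaling and any detection call were not given in the sources used here. The mean between the 2nd and 98th percentile was 499.951 on both arrays, so the intensities had been scaled per array and were used as deposited. Median intensities of the untreated, EGFP and DGK-zeta arrays were 111, 119 and 92.5, and the number of arrays limits the precision.

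Of 22690 probe sets, 64 controls, 691 with several symbols and 1555 with none in the platform annotation were left out. Gene IDs of 20351 of the 20380 named ones were found in a RefSeq table (GRCm38.p6), where 0 symbols differed. Intensities below the floor, the 50th percentile over all values of the 3 arrays (107), were replaced by it before log2, and 1.5-fold and 2-fold were the sizes counted. Promoter sequences and their coordinates are RefSeq's, in that assembly; the genome build behind the array was not used.

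Named genes follow a rule: the 12 highest and 12 lowest genes whose 2 or more measured probe sets agree in sign, by their mean; the 8 highest and 8 lowest with 1 measured probe set; the 5 highest and 5 lowest bounds; the 5 widest disagreements; up to 5 members of each list with the largest ratios and those at least 2-fold; Dgkz, Btg2 and Ccnd1; myoblast markers; and the Actb, Gapdh and transferrin receptor controls. Named after their values were seen were Acta1, B2m, Ccl2, Cxcl10, Cxcl5, Eif2ak2, H2-D1, Ifi204, Ifih1, Ifit3, Ifitm2, Irf7, Irgm1, Krt14, Oasl2, Rsad2, Samhd1, Tor3a, Trim25 and Usp18. Not every gene the rule names is printed. The comparison and the 32 gene lists (1243 genes, 1079 found on the array, 16 by a synonym) were chosen with earlier results of these data known, so the lists are described by counts and medians and not tested.

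Alternatives were 3 scalings, 5 treatments of low values, 4 choices of probe sets and fold rules of 1.5 and 3. The counting was tested on simulated data. Scripts ran in Python 3.11.15 (numpy 2.4.6; pandas 2.3.3) and figures were drawn with matplotlib 3.10.9.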

Additional observations from a re-analysis of the deposited data

Results flagged for a closer look

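Probe sets outside the comparison also held ratios past 2-fold. Of 691 probe sets with several gene symbols 411 were measured, of which 7 lay at 2-fold or more above untreated and 1 below it, with a median log2 ratio of -0.01. Of 1555 with no symbol 511 were measured, of which 2 lay at 2-fold or more above untreated and 9 below it, with a median of 0.05. They were picked out because the report names no gene from them. With 1 array per group, samples could not be screened for values far from their group.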

How the results depend on the processing

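As reported, 24 genes lay above and 31 below by 2-fold or more. Equal medians over all named probe sets gave 10 and 44, a floor at the 25th percentile (15.2) 378 and 261, and one at the 75th percentile (562) 3 and 8. Adding a pseudocount of 3.17 instead of a floor gave 955 and 862, averaging the probe sets of a gene 19 and 20, and the second-brightest probe set 10 and 33. A 1.5-fold rule gave 279 and 123, and a 3-fold rule 0 and 4. Genes past 2-fold by every measured probe set numbered 1 as reported (0 higher, 1 lower), 2 with the floor at the 25th percentile (2 higher, 0 lower, so that of Malat1 was lost), 0 with that at the 75th, 0 when suffixes _x_at and _s_at were left out, 16 at 1.5-fold (10 higher, 6 lower) and 0 at 3-fold. Quantile normalization, equal medians over measured probe sets and the median of both arrays as floor kept both counts within 1.5 times. Of 609 values of 56 named genes, 538 moved by less than the spread between probe sets, 63 moved by more and 8 changed sign. The latter were those of Senp1 (0.81), Rspry1 (0.48), Myo10 (0.18) and Sbno1 (0.24), each with the probe set brightest over 3 arrays and with the second-brightest one. The cause of these moves was not tested, beyond the other floor, fold or probe set itself. The interferon effector, MHC class I, cholesterol, hypoxia, replication and mitosis medians kept their sign in every alternative that gave a value. So did those of the chemokine, endocytosis, lysosome, NRF2, p53, unfolded protein, proteasome, respiratory chain and translation lists. Those of sensors, interferon receptors, immediate early genes and histones turned under each other scaling. Many named genes rest on 1 probe set, and no value has an error between cultures. No paired analysis was possible because each group has 1 array and the labels give no replicate numbers.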
